A study of Mus musculus with 10 samples.

Results

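The transcripts described here are those of 9 genes that mark border-associated macrophages, the macrophages of the brain's meninges, perivascular spaces and choroid plexus. They were taken by gene symbol, with earlier results of these data known, as the rows of the raw count table named Mrc1, Cd163, Lyve1, Pf4, Cbr2, F13a1, Clec10a, Folr2 and Dab2. All 9 rows were found among the 55453 gene rows of the table, and all 9 were among the 14481 genes that passed the filter on low counts. The RNA came from microglia sorted as CD45int CD11b+ cells from the hippocampus of female 3xTg mice, which carry mutant human APP and MAPT transgenes and develop amyloid and tau pathology of the Alzheimer's disease (AD) type. Per the study's methods, the transgenes for APP and MAPT are driven by the neuronal Thy1.2 promoter and the animals were retired breeders from a homozygous colony. Mice older than 15 months received subcutaneous glatiramer acetate (GA, 0.1 mg per injection), a random peptide copolymer used to treat multiple sclerosis, or the vehicle PBS over about 8 weeks, with an extra injection in the starting week and weekly injections after it. There were 5 PBS libraries and 5 GA libraries, and no library from mice without the transgenes enters these comparisons.

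Border-associated macrophages and microglia are both resident macrophages of the central nervous system, but they sit in different compartments. Microglia lie within the parenchyma and are recognised by P2ry12, Tmem119 and Sall1. Border-associated macrophages line the vessels and membranes, take up material from blood and cerebrospinal fluid, and are recognised by scavenger and endocytic receptors such as CD206 (the product of Mrc1), CD163 and LYVE1. They usually carry more surface CD45 than microglia, so that a CD45int gate is drawn below most of them. In RNA from a bulk sort, fewer cells of a type and less RNA per cell cannot be told apart, and this holds for each level given here.

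The libraries held 32332185 to 38764643 counts. The summed level of 12 microglia genes ran from 63444 to 74651 CPM (counts scaled to a common library size), so the sorted RNA carried the label's cell type. The 9 border-associated macrophage transcripts together took 0.00891% to 0.0329% of the counts of a library, which was 2918 to 11000 counts. Sample titles began with 388 for all PBS libraries, with 394 for GA 1 and GA 2, and with 400 for GA 3 to GA 5. What these prefixes stand for was not given in the sources used here, and prefix and treatment cannot be told apart. Nothing in the labels says whether each library came from a separate animal, so p-values measure the spread between these libraries only.

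The promoters of Mrc1, F13a1, Cbr2 and Pf4 are shown because the levels of these 4 genes were among those that ran closest together over the libraries. Each sequence covers 250 bases before to 50 bases after the annotated start (RefSeq, build GRCm38.p6), read along the gene's own strand. This start lay 22 bases (Mrc1), 93 bases (Cbr2) and 0 bases (F13a1 and Pf4) from the nearest start of a principal transcript in GENCODE M21. The windows lie at chr2:14229164-14229463 on the plus strand (Mrc1), chr13:37050195-37050494 on the minus strand (F13a1), chr11:120731972-120732271 on the minus strand (Cbr2) and chr5:90772185-90772484 on the plus strand (Pf4). Capitals mark the PU box GAGGAA, a core bound by the macrophage factor PU.1, and the MAF-binding core TGCTGAC, on either strand.
Mrc1: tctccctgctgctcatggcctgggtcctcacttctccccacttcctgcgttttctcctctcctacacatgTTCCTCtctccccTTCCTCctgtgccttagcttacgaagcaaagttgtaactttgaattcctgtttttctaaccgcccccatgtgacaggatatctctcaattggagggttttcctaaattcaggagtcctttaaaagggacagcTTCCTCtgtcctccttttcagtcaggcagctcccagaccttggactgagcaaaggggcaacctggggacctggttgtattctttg
F13a1: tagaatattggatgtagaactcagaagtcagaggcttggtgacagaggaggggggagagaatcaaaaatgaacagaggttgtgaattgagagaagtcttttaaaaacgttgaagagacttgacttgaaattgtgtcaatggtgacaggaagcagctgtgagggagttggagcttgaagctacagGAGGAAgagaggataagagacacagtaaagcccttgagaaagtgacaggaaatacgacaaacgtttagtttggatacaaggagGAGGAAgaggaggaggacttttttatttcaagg
Cbr2: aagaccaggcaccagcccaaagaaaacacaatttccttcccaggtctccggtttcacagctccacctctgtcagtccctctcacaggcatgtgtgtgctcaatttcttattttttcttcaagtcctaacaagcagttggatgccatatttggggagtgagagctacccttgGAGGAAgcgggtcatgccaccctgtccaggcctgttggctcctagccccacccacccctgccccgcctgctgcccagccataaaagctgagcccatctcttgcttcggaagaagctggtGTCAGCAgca
Pf4: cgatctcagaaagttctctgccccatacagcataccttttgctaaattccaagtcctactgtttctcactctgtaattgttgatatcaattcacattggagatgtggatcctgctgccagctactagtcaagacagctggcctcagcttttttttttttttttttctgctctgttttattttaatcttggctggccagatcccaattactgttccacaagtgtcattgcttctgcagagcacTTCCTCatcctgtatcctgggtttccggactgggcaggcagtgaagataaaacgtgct

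Promoters of 7 of the 9 genes were matched by symbol in the RefSeq table, which left out Lyve1 and Clec10a. For Dab2 the start used lay 150 bases from the nearest principal start. GAGGAA or its reverse complement occurred in 5 of these 7 windows, with 3 matches in Mrc1, 2 in F13a1 and 1 each in Cbr2, Pf4 and Dab2. The same letters occur in 28.3% of all 32851 promoter windows of that length. TGCTGAC occurred in 1 of 7 windows, that of Cbr2, against 4.67% of all windows. The AP-1 letters TGACTCA occurred in 0 of 7 against 5.2% of all, and the TATA box TATAAA in 0 of 7 against 13.6%. TGCTGAC and TGACTCA share the letters TGAC and can overlap. A match describes the window only.

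Mrc1 encodes the mannose receptor CD206, an endocytic receptor for mannosylated glycoproteins, and lies at chr2:14229392-14332057 on the plus strand with 29 exon blocks (GRCm38, GENCODE M21, as are all gene positions given here). Its normalised level was 36.3, 16.1, 53.0, 82.8 and 17.3 CPM in PBS 1 to PBS 5, and 18.1, 30.8, 35.4, 69.3 and 35.1 CPM in GA 1 to GA 5. PBS 4 was the highest library and GA 4 the next, and all GA libraries lay within the range of the PBS libraries. These values rested on 539 to 2672 counts, so that the 5.14-fold span between the lowest and the highest library was far above counting error.

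Lyve1, a hyaluronan receptor of lymphatic endothelium and of macrophages along vessels (chr7:110850607-110863239, minus strand), had the widest span of the 9 genes. It stood at 8.32, 2.21, 13.2, 30.2 and 4.76 CPM in PBS 1 to PBS 5, and at 4.94, 9.54, 7.51, 16.6 and 6.53 CPM in GA 1 to GA 5. PBS 4 was 13.6-fold above PBS 2, the lowest library, and all GA libraries lay between these PBS values. Cd163, the scavenger receptor for haemoglobin and haptoglobin complexes (chr6:124304656-124330527, plus strand), ranged from 7.11 to 26.2 CPM in PBS and from 7.82 to 17.9 CPM in GA. For Cd163, PBS 3 came after PBS 4, and GA 4 followed.

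Clec10a, a C-type lectin that binds galactose and N-acetylgalactosamine (chr11:70156197-70170834, plus strand), was low and flat in 8 libraries. It stood at 2.88, 2.12, 2.20, 7.22 and 2.18 CPM in PBS 1 to PBS 5, and at 2.01, 1.96, 2.02, 5.85 and 2.88 CPM in GA 1 to GA 5. The other libraries lay between 1.96 and 2.88 CPM, below PBS 4 and GA 4. Folr2, the folate receptor beta (chr7:101839988-101857194, minus strand), was the lowest of the 9, at 0.478 to 1.70 CPM in PBS and 0.421 to 1.18 CPM in GA, on 15 to 55 counts. Folr2 shares 975 exon bases with the antisense gene Gm10602, and 45.7% of the 100-base windows of its longest transcript also occur there. The strand setting of the counting was not given, so reads of Folr2 and Gm10602 may be confused. Gm10602 had 15 to 121 counts and its pattern ran against the mean pattern of the 9 genes (r = -0.54 across the 10 libraries).

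F13a1 encodes the A subunit of coagulation factor XIII, a transglutaminase made by macrophages and megakaryocytes (chr13:36867178-37050244, minus strand). Its level was 24.3, 13.8, 43.6, 81.0 and 15.9 CPM in PBS 1 to PBS 5, and 13.1, 25.3, 26.9, 63.9 and 27.3 CPM in GA 1 to GA 5. The order of the libraries was close to that of Mrc1, with PBS 4, GA 4 and PBS 3 on top in both. Pf4, the chemokine CXCL4 (chr5:90772435-90773383, plus strand), ranged from 2.36 to 10.9 CPM in PBS and from 1.23 to 8.18 CPM in GA. Pf4 is also a platelet product. Of 8 other platelet genes examined, 4 passed the filter. Gp1bb and Gp6 had no count in any library, and Ppbp and Itga2b had at most 4 and 30 counts in a library. In contrast, Itgb3 had means of 116 CPM in PBS and 131 CPM in GA and Gp9 of 33.4 and 28.7 CPM. The 8 genes summed to 111 to 176 CPM in PBS and 134 to 178 CPM in GA, with Itgb3 making up 78.5%, and the sum correlated with Mrc1 at r = -0.14 (adjusted permutation p = 0.832). The sum was set against Mrc1, not Pf4, and the part of platelet RNA in the level of Pf4 was not tested. Cbr2, a carbonyl reductase (chr11:120729489-120732114, minus strand), ranged from 1.70 to 14.9 CPM in PBS and from 2.13 to 9.30 CPM in GA.

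Dab2, an endocytic adaptor for clathrin-coated vesicles (chr15:6299788-6440712, plus strand), was the most abundant and the most even of the 9 genes. It stood at 50.6, 41.3, 79.4, 75.4 and 50.9 CPM in PBS 1 to PBS 5, and at 53.6, 75.9, 58.4, 96.1 and 52.3 CPM in GA 1 to GA 5. The highest library was 2.32-fold above the lowest, and here GA 4, not PBS 4, was on top.

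**Figure D1:**
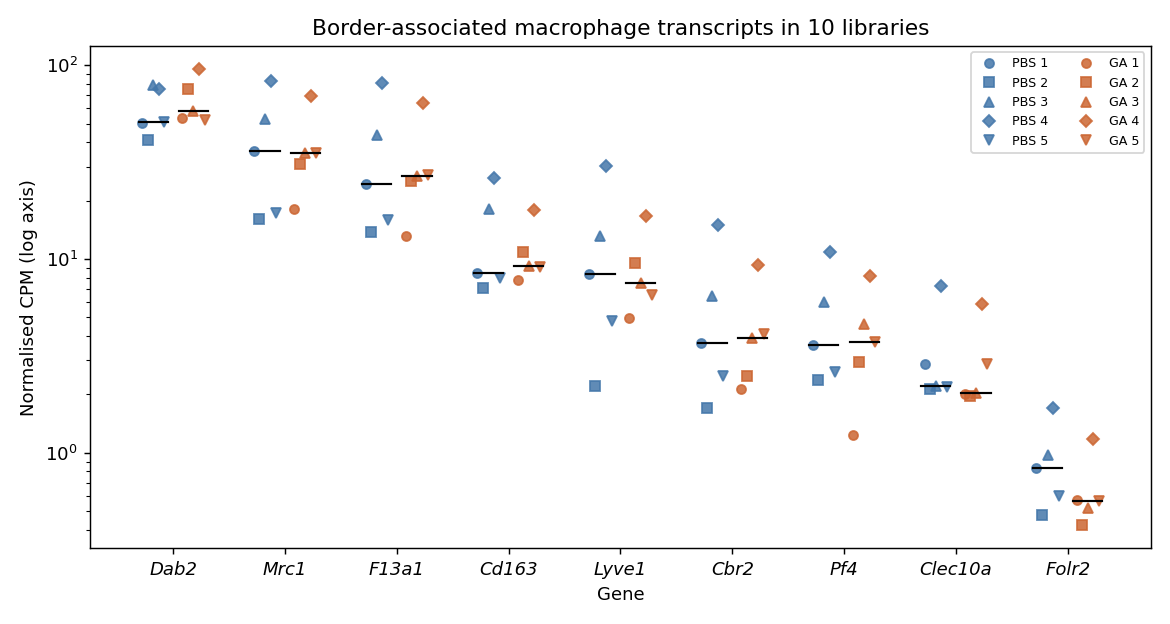
Normalised CPM (log axis) of the 9 genes in the 5 PBS (blue) and 5 GA (orange) libraries, each library with its own symbol and the group median as a black bar. PBS 4 is the highest library for 8 of 9 genes, GA 4 for Dab2, and the groups overlap for all 9.

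Within treatment groups, the SD of log2 CPM ran from 0.39 for Dab2 to 1.11 for Lyve1, against a median of 0.22 over all genes tested. All 9 genes lay between percentile 70.9 and percentile 95.9 of that spread. Part of the spread of low genes is counting error, and edgeR's fitted biological coefficient of variation for Folr2 (0.452) lay below the trend for genes of its level (0.502). For the other 8 genes it lay above the trend, as for Mrc1 with 0.449 against 0.129. On the scale of CPM per kilobase of merged exon, which allows levels of different genes to be compared, Dab2 had the highest mean (8.63), followed by Pf4 (6.40), Mrc1 (6.19), F13a1 (4.97), Cbr2 (3.86), Lyve1 (3.56), Cd163 (2.25), Clec10a (1.08) and Folr2 (0.508). Pf4 was above Mrc1 in 6 of 10 libraries, and Cbr2 above Lyve1 in 7 of 10, so the order of these neighbours was within their spread. Mrc1 was above F13a1 in 10 of 10 libraries, with a log2 ratio of 0.37 ± 0.17 (SD, n = 10 libraries), but with the longest transcript as length F13a1 (8.48) came before Mrc1 (7.34).

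The main comparison of the study, GA against PBS, called none of the 9 genes. Of all 14481 genes tested, 0 were called at an adjusted p under 0.05 (0%, edgeR's quasi-likelihood test with Benjamini-Hochberg adjustment); 833 had an unadjusted p under 0.05, none of them among the 9, and DESeq2 called 2 genes and limma-voom 0. For Mrc1 the mean was 41.1 ± 27.8 CPM in PBS and 37.7 ± 19.0 CPM in GA (SD, n = 5 libraries each). The edgeR log2 fold change of Mrc1 was -0.12 (SE 0.42, 95% interval -1.01 to 0.77, adjusted p = 0.978). The value was below 0 for 8 of 9 genes, from -0.12 for Mrc1 to -0.49 for Folr2, and above 0 for Dab2 (0.18, SE 0.20, interval -0.25 to 0.60). Without GA 4 the value for Dab2 was 0.018. The median over the 9 genes was -0.29 and over all genes tested 0.00020. Adjusted p-values of the 9 genes ran from 0.928 to 0.978.

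The intervals of all 9 genes held 0, and the widest, that of Cbr2, reached from -1.54 to 0.73, and for 8 of 9 genes the interval reached below -1, so a level 2-fold lower in GA lay within it. A two-sided exact permutation test on log2(CPM + 0.1) over all arrangements of the treatment labels, whose smallest possible p is 0.00794, gave p from 0.325 (Folr2) to 0.984 (Lyve1). PBS and GA libraries overlapped for all 9 genes, while 0.891% of all genes tested showed no overlap. Single libraries moved most of these values. Without PBS 4, the log2 fold change was above 0 for 8 of 9 genes, at 0.30 for Mrc1 and 0.36 for F13a1, and only Folr2 stayed below 0 (-0.15). Without GA 4 the values moved the other way, to -0.45 for Mrc1, -0.62 for F13a1, -0.69 for Pf4 and -0.87 for Cbr2. Without GA 1, Mrc1 (0.056) and F13a1 (0.0084) lay just above 0.

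**Figure D2:**
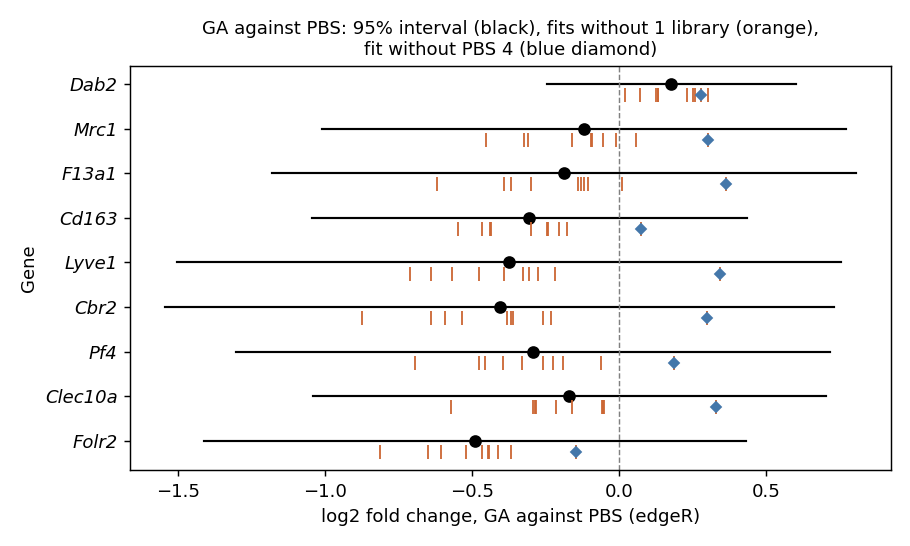
Log2 fold change of GA against PBS by edgeR for each gene, with its 95% interval (black), the value in each fit that leaves out 1 library (orange ticks) and the fit without PBS 4 (blue diamond). All 9 intervals hold 0, and the fit without PBS 4 lies above 0 for 8 of 9 genes.

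Among the GA libraries, those with prefix 400 were compared with those with prefix 394. edgeR called 2 of 15985 genes (0.0125%) and 0 of the 9. The log2 difference (400 minus 394) was above 0 for all 9 genes, from 0.09 for Dab2 to 1.40 for Pf4 (SE 0.63, adjusted p = 0.90), with 3 against 2 libraries. Prefix 400 includes GA 4, the highest GA library for all 9 genes. GA 3 and GA 5 also lay above GA 1 and GA 2 for Mrc1, Pf4, Cbr2, F13a1 and Clec10a. They lay between GA 1 and GA 2 for Cd163, Lyve1 and Folr2. For Dab2, GA 3 and GA 5 stood at 58.4 and 52.3 CPM against 53.6 and 75.9 CPM in GA 1 and GA 2.

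The next question was whether the 9 transcripts varied together over the libraries. All 36 pairs had a positive Pearson correlation of log2 CPM over the 10 libraries, from 0.53 to 0.98, with a median of 0.85. By permutation tests with 100000 resamples, 34 of 36 pairs had an adjusted p under 0.05 over the 36 pairs, and 25 of 36 by Spearman's rho (median rho 0.78). The pairs short of it by Pearson's r were Clec10a with Dab2 (r = 0.53) and Folr2 with Dab2 (r = 0.58). An r of at least 0.7 was reached by 33 of 36 pairs, against 2.21% of all pairs of genes tested. Mrc1 and F13a1 formed the closest pair (r = 0.98, rho = 0.88, adjusted permutation p = 0.000206 for r and 0.00533 for rho). Without PBS 2 and PBS 4, the libraries farthest from the median of Mrc1, their r was 0.98. F13a1 also lay close to Cbr2 (0.97), Pf4 (0.96), Cd163 (0.95) and Lyve1 (0.94), with the promoters of Mrc1, F13a1, Cbr2 and Pf4 printed above.

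PBS 4 and GA 4, the libraries richest in these transcripts, carried part of this pattern. Without both, an alternative chosen after seeing the data, the median r over 8 libraries was 0.68, the lowest -0.29, and 14 of 36 pairs had an adjusted p under 0.05 by exact permutation. Mrc1, F13a1 and Cbr2 still correlated at 0.93 to 0.97 with each other, and each of these 3 pairs was called. Mrc1 and F13a1 correlated with Pf4 at 0.84 and 0.90, with Lyve1 at 0.88 and 0.86, and with Cd163 at 0.79 and 0.86, all called as well. Clec10a and Folr2 correlated with no other member at an adjusted p under 0.05 in these 8 libraries. Dab2 kept its closest pairs, with Cd163 (0.88) and Lyve1 (0.86).

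**Figure D3:**
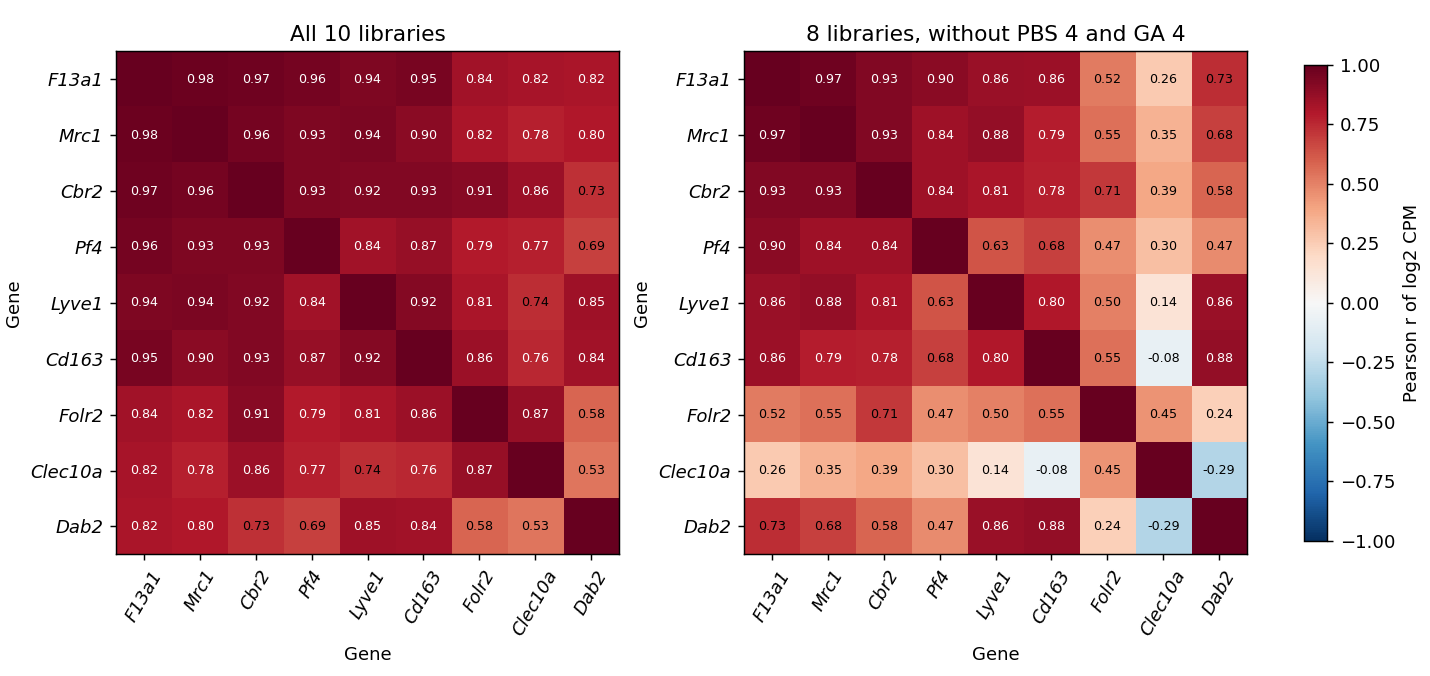
Pearson r of log2 CPM for each pair of the 9 genes over all 10 libraries (left) and over 8 libraries without PBS 4 and GA 4 (right), coloured from -1 to 1. The block of F13a1, Mrc1, Cbr2, Pf4, Lyve1 and Cd163 stays positive in both panels, whereas values for Clec10a drop to between -0.29 and 0.45 in the right panel.

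Within one treatment or one prefix there were at most 5 libraries, and no correlation was computed within them. After each library's value was centred on the mean of its treatment group, the median r was 0.88, and 0.91 after centring on the mean of its prefix. The summed level of the 9 transcripts showed the order of the libraries. It was 139, 87.2, 223, 330 and 105 CPM in PBS 1 to PBS 5, and 103, 160, 149, 288 and 142 CPM in GA 1 to GA 5. PBS 2 was the lowest library for 5 of the 9 genes, and GA 1 and GA 2 for 2 each.

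A further 25 genes listed as border-associated macrophage markers, none of them used to choose the 9, were examined in the same way. Of these, 24 passed the filter, and 1 did not. That gene was Marco, a scavenger receptor, at 0 to 0.0785 CPM in PBS and 0.183 to 0.839 CPM in GA (at most 28 counts in a library), so that its groups did not overlap. Marco was near the floor and was not tested. Of the 24 tested genes of the list, 0 had groups without overlap, against 0.891% of all genes tested. The share among genes that failed the filter was not computed. In GA against PBS, 10 of 24 were above 0 and 14 below, 0 were called, and the median log2 fold change was -0.02. Cd38, an ectoenzyme that breaks down NAD, was the one gene with an unadjusted p under 0.05 (log2 fold change 1.0, SE 0.40, adjusted p = 0.854). The median correlation of the 24 genes with the mean pattern of the 9 was 0.61, and 12 of 24 lay above 0.619, the value that 5% of all genes tested exceed. PBS 4 and GA 4 were both among the top 3 libraries for 8 of the 9 genes and for 17 of the 24, against 7.3% of all genes tested and 0 of 12 microglia genes. This count was chosen after the values were seen.

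Among these 24 genes, the lectins Cd209a (r = 0.86) and Cd209f (0.85) lay nearest to the mean pattern of the 9. The lectin Clec4n (0.82), the matrix protein Tgfbi (0.81), Ms4a4a (0.78), the lectin Cd209b (0.78) and the chemokine Ccl24 (0.78) came after them. Cd209a was at 12.1 ± 6.66 CPM in PBS and 8.14 ± 6.23 CPM in GA, with 22.1 CPM in PBS 4 and 19.1 CPM in GA 4. Other genes of the list lay lower, scarce and abundant ones alike. Ednrb, the endothelin receptor type B, had r = 0.19 with a mean of 2.23 CPM in PBS. Hpgd, a prostaglandin-degrading enzyme, had r = 0.44 with a mean of 514 CPM in PBS, and Gas6, a ligand of TAM receptors, had r = -0.50 with 299 CPM. Microglia also express Hpgd, Stab1 and Gas6, and the sum over the list (1759 to 2125 CPM) is made up mostly of such genes.

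**Figure D4:**
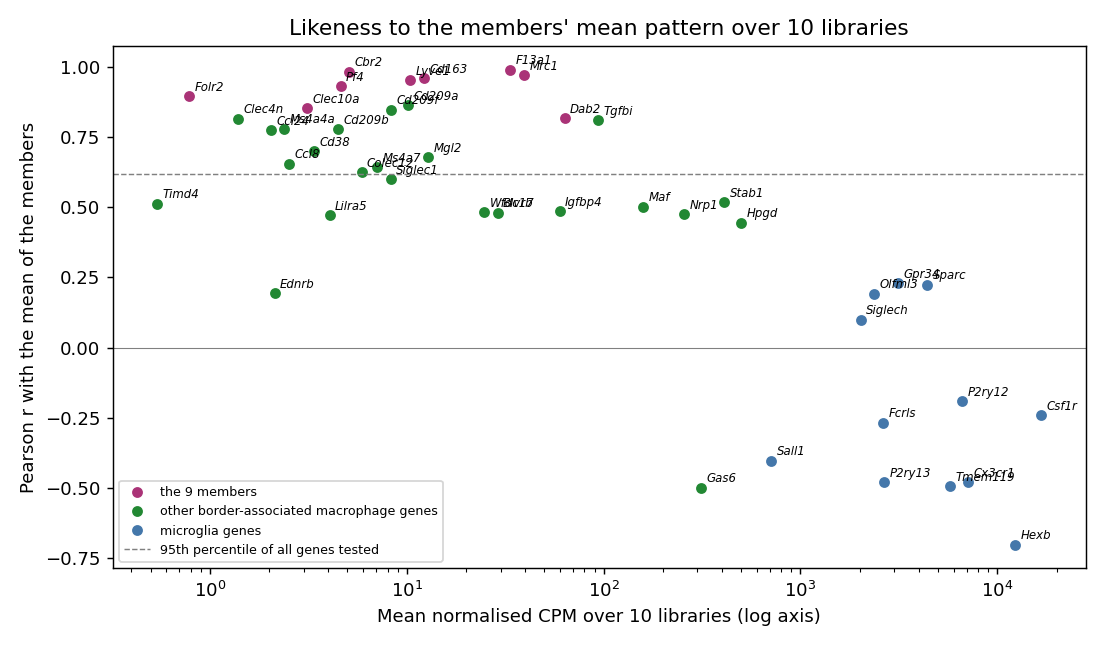
Pearson r of each gene with the mean pattern of the 9 genes over 10 libraries, against the gene's mean CPM (log axis), for the 9 genes (purple, each part of the mean), 24 other border-associated macrophage genes (green) and 12 microglia genes (blue). 12 of the 24 green points lie above the dashed line at 0.619, and none of the blue points do.

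Ranked by likeness to the mean pattern over all genes tested, 6 of the 9 genes stood among the top 10 and the last, Dab2, at rank 60; as parts of the mean, they are near it in part by construction. Against the mean of the other 8, r ran from 0.77 for Dab2 to 0.99 for F13a1. The 10 genes outside the 9 that were most alike were Csf2rb (r = 0.93), the beta chain shared by receptors for GM-CSF, IL-3 and IL-5, then Pltp, Tlr8, Adam33, Tbc1d25, Clec12a, Pdxk, Gm5281, Lmbr1l and Stag1 (0.87 to 0.92). Csf2rb had a much narrower range, 121 to 152 CPM. For Mrc1 alone, the 5 most alike were F13a1, Cbr2, Lyve1, Tlr8 and Pf4 (0.93 to 0.98).

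Markers of other cell types were followed beside the 9 genes, since Mrc1 and Lyve1 are also found on endothelium. Endothelial cells and fibroblasts lack CD45 and CD11b, so the CD45int CD11b+ gate is meant to leave them out. Over 14 lists, Mrc1 correlated with the summed level of the other border-associated macrophage genes (r = 0.86, adjusted permutation p = 0.0319; rho = 0.85, adjusted p = 0.0388) and of endothelial genes (r = 0.80, adjusted p = 0.0471; rho = 0.73, adjusted p = 0.0953). Without the 2 libraries farthest from the median of Mrc1, these were 0.80 and 0.76. Hpgd made up 26.0% of the sum of the other border-associated macrophage genes, which came mostly from abundant genes that microglia also express. With 1 library left out, 0 lists passed in 6 of the 10 cases (without PBS 4, PBS 5, GA 1, GA 2, GA 3 or GA 4). Endothelial sums were 38.3 to 52.9 CPM in PBS and 35.4 to 50.1 CPM in GA, with PBS 4 and GA 4 highest in their groups and Pecam1 making up 68.2% of the sum. Of the 10 endothelial genes, 5 passed the filter. Slco1a4 had no count, and Cldn5, Ly6c1, Itm2a and Esam had at most 8, 3, 12 and 4 counts in a library. The tested genes correlated with the mean pattern of the 9 at 0.68 (Egfl7), 0.61 (Pecam1), 0.51 (Tie1), 0.30 (Flt1) and -0.37 (Cdh5). Fibroblast genes, markers of the meninges and vessel walls, had r = 0.73 with Mrc1 and did not pass (adjusted permutation p = 0.0831). They summed to 0.687 to 4.61 CPM, with Ptgds, the 1 gene of 10 that passed the filter, making up 82.3% of the sum. The part of other cell types in the levels of the 9 genes was not tested.

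None of the other lists passed. The correlation of Mrc1 with the mural cell sum was 0.61 (adjusted permutation p = 0.215) and with the monocyte sum 0.55 (adjusted p = 0.237), the latter 0.68 after centring on treatment and 0.79 after centring on prefix but 0.14 without the 2 libraries farthest from the median of Mrc1. It was -0.56 with the microglia sum (adjusted p = 0.237) and 0.11 with the neutrophil sum (adjusted p = 0.832). Neutrophil sums were 35.7 to 437 CPM in PBS and 9.79 to 164 CPM in GA, with all 7 tested genes lower in GA, 6 of them at an unadjusted p under 0.05 and 0 called. PBS 4 had 281 and GA 4 17.8 CPM of neutrophil genes, so that the libraries richest in border-associated macrophage transcripts lay far apart in neutrophil transcripts. Choroid plexus genes summed to 0.393 to 8.35 CPM, with 0.403 CPM in PBS 4 and 3.38 CPM in GA 4.

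Some of the 9 genes share sequence with neighbours or relatives. Clec10a shares 4.08% of its 100-base windows with its paralog Mgl2, which had 207 to 928 counts and correlated with the mean pattern at 0.68, and Cbr2 shares 7.02% with Gm11771, which had no count. F13a1 overlaps exons of antisense genes by 74 bases, and Dab2 overlaps those of an antisense gene and a pseudogene together by 211 bases. The overlapping genes had no count. The microRNA gene Mir511 lies within Mrc1 and had 0 to 4 counts.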

How the data were processed

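Hippocampal CD45int CD11b+ cells of 5 PBS and 5 GA libraries were profiled by RNA-seq. The deposited table holds raw read counts per gene symbol. The submitters' processing notes name bcl2fastq 2.19.0, fastp 0.20.0, STAR 2.7.0f, Subread 1.6.4 with featureCounts, DESeq2 and GRCm38.p6. Annotation release and strand setting are not given in the sources used here. Counts were tested with edgeR 4.0.16 (quasi-likelihood, TMM, filterByExpr with a minimum count of 10, R 4.3.3), fitted on all genes and all 10 libraries with treatment as the only term. DESeq2 1.42.0 and limma 3.58.1 were alternatives. CPM uses TMM library sizes. Correlations used log2 CPM with a prior count of 2. Intervals are at 95%. PCR reads are not independent molecules. All 45 library pairs differed beyond counting noise (chi-square per degree of freedom 14.0 or more). Of 55453 symbols, 54586 were found in GENCODE M21, from which positions and lengths were taken. The procedure was tested on simulated data. Replicate numbers were given in accession order. The genes and lists were chosen with earlier results of these data known. Genes were named if they were members, among the 10 most like the members' mean, the 5 most like Mrc1, or in a list.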

Additional observations from a re-analysis of the deposited data

Results flagged for a closer look

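Of 48 groups of 5 libraries examined, 9 had an extreme library separated from the rest by more than Dixon's 95% critical value (0.71), which chance alone gives in about 1 of 20 groups. The same libraries recur, so these are not independent. GA 4 stood apart among GA libraries for Cbr2 (9.30 CPM), F13a1 (63.9 CPM), Clec10a (5.85 CPM) and Folr2 (1.18 CPM), and for the summed fibroblast genes (4.61 CPM). PBS 4 stood apart among PBS libraries for Clec10a (7.22 CPM) and for the summed endothelial genes (52.9 CPM). PBS 5 stood apart for the summed microglia genes (74651 CPM) and PBS 3 for the summed choroid plexus genes (6.02 CPM).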

How the results depend on the processing

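None of the 9 genes was called in GA against PBS under any of 20 alternatives. Across all genes, DESeq2 called 2, and fits without 1 library called 0 to 1 (1 without GA 1). The sign and size of the log2 fold changes depended on the setting. Without 1 library they ran from -0.45 to 0.30 for Mrc1, -0.55 to 0.0738 for Cd163, -0.71 to 0.34 for Lyve1, -0.69 to 0.19 for Pf4, -0.87 to 0.30 for Cbr2, -0.62 to 0.36 for F13a1 and -0.57 to 0.33 for Clec10a, with the highest value without PBS 4 in each case. They ran from -0.81 to -0.15 for Folr2, and from 0.018 (without GA 4) to 0.30 for Dab2. limma-voom gave 0.0488 for Mrc1 and 0.0611 for Lyve1. GA libraries of prefix 400 alone gave 0.19 for Mrc1, 0.12 for Pf4, 0.15 for F13a1 and 0.12 for Clec10a. Those of prefix 394 alone gave -1.32 for Cbr2, -1.27 for Pf4, -0.89 for F13a1, -0.88 for Folr2, -0.74 for Mrc1, -0.73 for Clec10a, -0.68 for Lyve1, -0.53 for Cd163 and 0.13 for Dab2, with none called. Without PBS 4 and GA 4, Lyve1 was at 0.0038. The mean difference behind the exact permutation test (n = 5 libraries each) changed sign for Mrc1 on linear CPM (p = 0.849) and for Lyve1 with a pseudocount of 1 CPM (p = 0.976) and on linear CPM (p = 0.730).

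The median correlation over pairs was 0.78 by Spearman's rho and 0.68 without PBS 4 and GA 4, where 14 pairs passed. With 1 library left out, 28 to 35 pairs passed. Mrc1 correlated with 1 list by rho, and with 0 to 2 lists with 1 library left out. The cause of these shifts was not tested. No paired analysis was possible because replicate numbers were given in accession order and the trailing numbers of the titles repeat within GA. Folr2, with 15 to 55 counts, and the 5 libraries per group limit precision.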
